A study of Mus musculus with 18 samples.

Results

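The genes described here belong to the antioxidant and detoxifying systems of the cell: the glutathione peroxidases, peroxiredoxins, thioredoxins and their reductases, glutathione transferases and metallothioneins, the enzymes that make and recycle glutathione, and catalase, Nqo1, the heme oxygenases, sulfiredoxin and Nfe2l2. They were selected by a rule on gene symbols that uses no measured value, but that was set with earlier results of these data known. Of the 18194 genes that a probe set named alone, 50 matched, through 82 of the 45101 probe sets. Expression was measured in 18 mouse samples, 1 Affymetrix array each, after T7-based linear amplification of total RNA. The 6 groups of 3 samples were SOD1 mutant and wildtype ventral spinal cord tissue, SOD1 mutant and wildtype spinal motor neurons, and SOD1 mutant and wildtype motor neurons of the facial nucleus in the brainstem. Every sample title begins with D60, which the labels do not explain. The labels name no SOD1 allele, strain or sex, state no age in words, and give no way in which the motor neurons were picked and no animal behind a sample. Separate animals are thus not established, and the p-values cover sample-to-sample spread that could be technical.

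Glutathione is the main small thiol of the cell, and peroxidases use it to reduce hydrogen peroxide and lipid peroxides, after which glutathione reductase restores it with NADPH. Thioredoxin does the same work for the peroxiredoxins and is itself restored by thioredoxin reductases. Metallothioneins are short cysteine-rich proteins that bind zinc and copper. Mt1 and Mt2 are induced by metals and glucocorticoids, and Mt1, Mt2 and Mt3 are abundant in astrocytes. Many genes of the whole set are targets of Nrf2, the transcription factor encoded by Nfe2l2. SOD1 itself is the cytosolic copper-zinc superoxide dismutase, which produces the hydrogen peroxide that these systems remove, and mutations of it cause a familial form of amyotrophic lateral sclerosis.

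Levels are log2(intensity + 16) after quantile normalization, each gene is read from its brightest probe set, and levels of different genes are not compared. Sod1, which checks the genotype labels, averaged 16.49 in mutant and 16.10 in wildtype tissue, 16.85 in mutant and 16.40 in wildtype spinal motor neurons, and 16.75 in mutant and 16.51 in wildtype facial motor neurons. The rise in mutants passed the test in tissue (0.38, adjusted p = 0.0401 in limma) and over both motor neuron sites (0.35, adjusted p = 0.0121). The ratio of 3' to 5' actin probe sets, which grows as amplified RNA falls short of the 5' end, ran from 25.3 to 74.4 on motor neuron arrays, against 1.56 to 1.78 on tissue arrays. Within each motor neuron site it did not overlap between genotypes (59.0 was the highest mutant and 59.7 the lowest wildtype value in facial samples), with means of 30.7 in mutant and 46.5 in wildtype spinal samples, and 39.8 in mutant and 67.6 in wildtype facial samples. The same ratio of Gapdh probe sets did overlap between genotypes at both sites. It was 20.5 to 21.7 in mutant and 19.1 to 49.7 in wildtype spinal samples. In facial samples the Gapdh ratio was 14.5 to 21.5 in mutants and 20.3 to 27.3 in wildtypes. The 7 motor neuron markers summed to between 92763 and 161518 intensity units in motor neurons and between 14870 and 21149 in tissue, but Mnx1, one of them, lay near background in facial motor neurons (means 5.71 in mutant and 5.17 in wildtype samples). Motor neuron samples kept astrocyte and oligodendrocyte marker signal. In such bulk samples fewer cells of a type and less RNA per cell cannot be told apart.

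Of the 50 genes, 34 were bright enough to be tested in all 12 comparisons, 6 in some, and 10 in none. Those never tested were Gpx2, Gpx5, Gpx6, Gsta2, Gsta3, Gstm3, Gsto2, Gstp3, Gstt4 and Mt4, whose group means lay between 4.68 and 8.77. Values under 8.79 are close to background. Gstm6 and Gstt2 were tested in 1 comparison each, Gstm2 and Hmox1 in 3, Gstt3 in 5 and Gpx8 in 8. Only probe sets annotated with 1 gene symbol were used, and Prdx1, Prdx5, Prdx6, Gsta1 and Gstp2 were not analysed here. The peroxiredoxins below are thus Prdx2, Prdx3 and Prdx4 alone. Probe sets of the Gstm1 and Gpx4 measurements carry the mark of cross-hybridizing probes, and those of Mt1, Srxn1 and Gstm3 are shared by similar transcripts, so signal from close relatives cannot be separated in them.

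The metallothionein genes Mt4, Mt3, Mt2 and Mt1 lie in this order within 43.1 kb of mouse chromosome 8. Their promoters are shown because Mt1, Mt2 and Mt3 moved together between spinal and facial motor neurons of mutants and, after quantile normalization, between motor neurons and tissue. The windows run from 250 bases before to 50 bases after a RefSeq transcript start (GRCm38.p6, plus strand) and cover chr8:94178839-94179138 for Mt1, chr8:94172368-94172667 for Mt2 and chr8:94152357-94152656 for Mt3. Capitals mark matches, on either strand, to the metal response element core, spelled TGCACNC or TGCGCNC, which cannot overlap between spellings at the same start.
Mt1: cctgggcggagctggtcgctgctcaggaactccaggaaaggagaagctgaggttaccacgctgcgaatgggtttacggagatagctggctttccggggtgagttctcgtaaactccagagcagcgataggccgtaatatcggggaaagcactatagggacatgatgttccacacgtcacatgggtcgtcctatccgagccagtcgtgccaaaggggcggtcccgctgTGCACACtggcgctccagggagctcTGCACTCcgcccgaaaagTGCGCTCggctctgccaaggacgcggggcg
Mt2: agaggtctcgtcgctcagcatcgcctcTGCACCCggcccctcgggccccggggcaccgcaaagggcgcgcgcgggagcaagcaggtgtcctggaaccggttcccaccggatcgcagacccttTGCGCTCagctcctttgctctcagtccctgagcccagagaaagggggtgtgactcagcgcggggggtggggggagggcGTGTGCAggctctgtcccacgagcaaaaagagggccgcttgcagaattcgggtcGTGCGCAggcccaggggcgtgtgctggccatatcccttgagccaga
Mt3: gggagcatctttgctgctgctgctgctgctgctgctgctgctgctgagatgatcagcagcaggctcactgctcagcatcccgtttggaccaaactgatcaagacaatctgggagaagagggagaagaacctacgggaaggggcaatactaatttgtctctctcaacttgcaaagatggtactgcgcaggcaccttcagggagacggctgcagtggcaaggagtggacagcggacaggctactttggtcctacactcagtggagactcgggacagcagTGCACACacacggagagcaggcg
The core occurred 3 times in the Mt1 window, 4 times in the Mt2 window and 1 time in the Mt3 window. At least 1 match was present in 25.7% of 32851 promoter windows of the same length, and in 16 of the 45 genes of the set with a window when only the first window of each gene is counted. Gsto2 also had a match in another of its windows. 3 or more matches were held by 1.97% of all windows and, in the set, by those of Mt1, Mt2 and Gclm. The antioxidant response element core, spelled TGACNNNGC and searched on both strands, was present in 12.4% of all windows and in 6 of the 45 first windows, those of Gclm, Srxn1, Nfe2l2, Gstm5, Gsta3 and Mt2. Txnrd1 and Gstm7 had a match in another of their windows. A match to such short letters is a description of the sequence and not a binding site.

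Whether the antioxidant systems differ between genotypes was asked in each kind of sample. In ventral cord tissue 1 of the 40 genes tested rose in SOD1 mutants and none fell, against 0.623% of all 10916 tested genes, while 5 had an unadjusted p under 0.05 (12.5%, against 9.91% of all genes). The gene was Mt2, which encodes a broadly expressed metallothionein. Mt2 stood at 16.46, 16.52 and 16.44 on the mutant tissue arrays, against 16.07, 16.19 and 16.09 on the wildtype tissue arrays. Every mutant array lay above every wildtype one, and the difference was 0.36 (SE 0.05, 1.28-fold, adjusted p = 0.0198). Mt2 lost its call with a common median, no filter, no trend or all 18 arrays in 1 fit, and when wildtype replicate 3, mutant replicate 2 or mutant replicate 3 was left out, and its adjusted p ran from 0.0055 to 1 over 17 alternatives. Microglia markers moved with it: 6 of 9 rose in mutant tissue, and their summed level was 107639 to 123917 in mutant and 68120 to 73557 in wildtype tissue. Astrocyte markers summed to 433453 to 467968 in mutant and 400532 to 407902 in wildtype tissue, and 1 of 7 rose. The part of these cells in the Mt2 result was not tested.

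Mt1, which shares the cluster and much of the regulation of Mt2, was 17.09, 16.98 and 17.02 in mutant tissue and 16.88, 16.91 and 16.87 in wildtype tissue. These groups did not overlap either, but the difference of 0.14 did not pass (adjusted p = 0.328). Mt3, the brain metallothionein, differed by -0.01 (95% interval -0.13 to 0.11). Gpx1, the cytosolic glutathione peroxidase, differed by 0.18 (adjusted p = 0.487). The smallest p among lower genes belonged to Gstm1, a mu-class glutathione transferase, at 14.75, 14.34 and 14.49 in mutant and 14.79, 15 and 15.08 in wildtype tissue (-0.43, adjusted p = 0.205). It fell past the threshold only when mutant replicate 1 was left out (-0.54, adjusted p = 0.0383, from 0.0383 to 1 over 17 alternatives), and its other bright probe sets gave smaller differences of -0.12 and -0.14. Gsta4, which detoxifies the lipid aldehyde hydroxynonenal, and Txn2, the mitochondrial thioredoxin, were 0.17 and 0.22 lower and did not pass. Over the 40 genes the median difference was 0.01, against -0.01 over all tested genes.

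In spinal motor neurons none of the 35 genes tested passed, against 0.0641% of all tested genes, and 8 of them had an unadjusted p under 0.05. That is 22.9% of the genes, against 9.49% of all genes tested. Mt2 was 15.81, 15.87 and 15.84 in mutant and 15.66, 14.18 and 15.05 in wildtype spinal motor neurons. The mutant arrays lay close together and above all wildtype ones, which were spread over 1.5 units, and the difference of 0.88 (SE 0.28) had an adjusted p of 0.437. Nfe2l2, the gene of Nrf2, was 11.38, 11.13 and 10.98 in mutant and 9.63, 10.12 and 10.76 in wildtype samples. Its groups also did not overlap, and the difference was 0.99 (SE 0.33, adjusted p = 0.448). Txnrd1, the cytosolic thioredoxin reductase, overlapped between genotypes, at 13.91, 14.04 and 13.81 in mutant and 12.89, 13.84 and 13.24 in wildtype samples (0.59, adjusted p = 0.493), and another bright probe set of it differed by -0.09. Mt1 differed by 0.56 (adjusted p = 0.503).

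On the lower side in spinal motor neurons, Gpx1 was 14.93, 14.50 and 14.74 in mutant and 15.13, 15.13 and 15.46 in wildtype samples, without overlap (-0.52, SE 0.16, adjusted p = 0.437). Prdx4, the peroxiredoxin of the endoplasmic reticulum, was 12.44, 12.33 and 12.28 in mutant and 13.17, 12.44 and 13.15 in wildtype samples (-0.57, adjusted p = 0.504), and its other bright probe sets gave -0.67 and -0.59. Gstm7, a mu-class transferase, differed by -1.25 and Txnrd3, a thioredoxin reductase best known from testis, by -0.47, and neither passed. Wildtype replicate 2, whose Mt2, Mt1 and Prdx4 were the lowest of its group, moved these results. Without it 3 genes passed, Txnrd1 (0.85, adjusted p = 0.023), Prdx4 (-0.81, adjusted p = 0.0346) and Gpx4 (-0.33, adjusted p = 0.0441), of which Gpx4 was named after its value was seen. Without wildtype replicate 1, Mt2 alone passed (1.22, adjusted p = 0.0388). The share of all genes that passed without these arrays is not given here, so these counts are not read as a trait of the set. Over 17 alternatives the highest adjusted p of Txnrd1, Prdx4 and Mt2 was 1. Microglia markers were again higher in mutants, 2 of 9 past the test, with a summed level of 68496 to 89362 in mutant and 11534 to 31126 in wildtype spinal motor neurons. Astrocyte markers summed to 120491 to 137188 in mutant and 97289 to 113817 in wildtype samples, without overlap, and 1 of 6 tested rose, Gfap (2.85, adjusted p = 0.00154). The part of these cells in the differences was not tested.

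In facial motor neurons none of 34 genes passed, as for all tested genes (0%), and 5 had an unadjusted p under 0.05, which is 14.7% against 17.9% of all genes. Gstz1, an enzyme of tyrosine breakdown, was 11.09, 11.35 and 10.59 in mutant and 10.25, 9.71 and 9.95 in wildtype facial motor neurons. The groups did not overlap, and the difference was 1.04 (SE 0.29, adjusted p = 0.15). Srxn1, which repairs over-oxidized peroxiredoxins, was 13.39, 13.47 and 13.73 in mutant and 13.28, 13.08 and 12.94 in wildtype samples (0.43, adjusted p = 0.213). Gpx1 was 15.03, 14.99 and 14.74 in mutant and 15.26, 15.23 and 15.35 in wildtype samples, again without overlap (-0.36, SE 0.11, adjusted p = 0.161). Gsta4 (-0.34, adjusted p = 0.172) and Gss, glutathione synthetase (-0.50, adjusted p = 0.273), were also lower without passing, and Gsto1 was 0.28 higher (adjusted p = 0.317). Mt2 differed by 0.15 (95% interval -0.28 to 0.59) and Nfe2l2 by -0.19 (-1.05 to 0.67).

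Fitted over both motor neuron sites, with the site as a term, 1 of 34 genes fell and none rose, against 0.705% of all tested genes, and 8 had an unadjusted p under 0.05 (23.5%, against 17.9% of all). Gpx1 fell by 0.44 on the log2 scale (SE 0.10, 1.36-fold, adjusted p = 0.0469), and all 6 mutant arrays lay below the lowest wildtype array of their own site. The call was close to the threshold. It ended in 16 of 23 alternatives, with adjusted p-values from 0.00705 to 0.998 and differences from -0.57 to -0.36, and it ended when any of the 12 arrays was left out except mutant facial replicate 2 and wildtype spinal replicate 2. It also ended with the replicate block (sites and genotypes compared within replicate numbers). The actin ratio, unlike the Gapdh ratio, was lower in mutants at both sites without overlap. With the actin ratio as a covariate the difference in Gpx1 was -0.36 and did not pass. Srxn1 (0.35, adjusted p = 0.151), Gsr, glutathione reductase (0.41, adjusted p = 0.181), and Txn1, the cytosolic thioredoxin (0.18, adjusted p = 0.211), were the highest ranked of the higher genes. Gsta4 (-0.29, adjusted p = 0.16) and Gpx3, the secreted peroxidase (-0.41, adjusted p = 0.245), followed Gpx1 on the lower side.

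**Figure D1:**
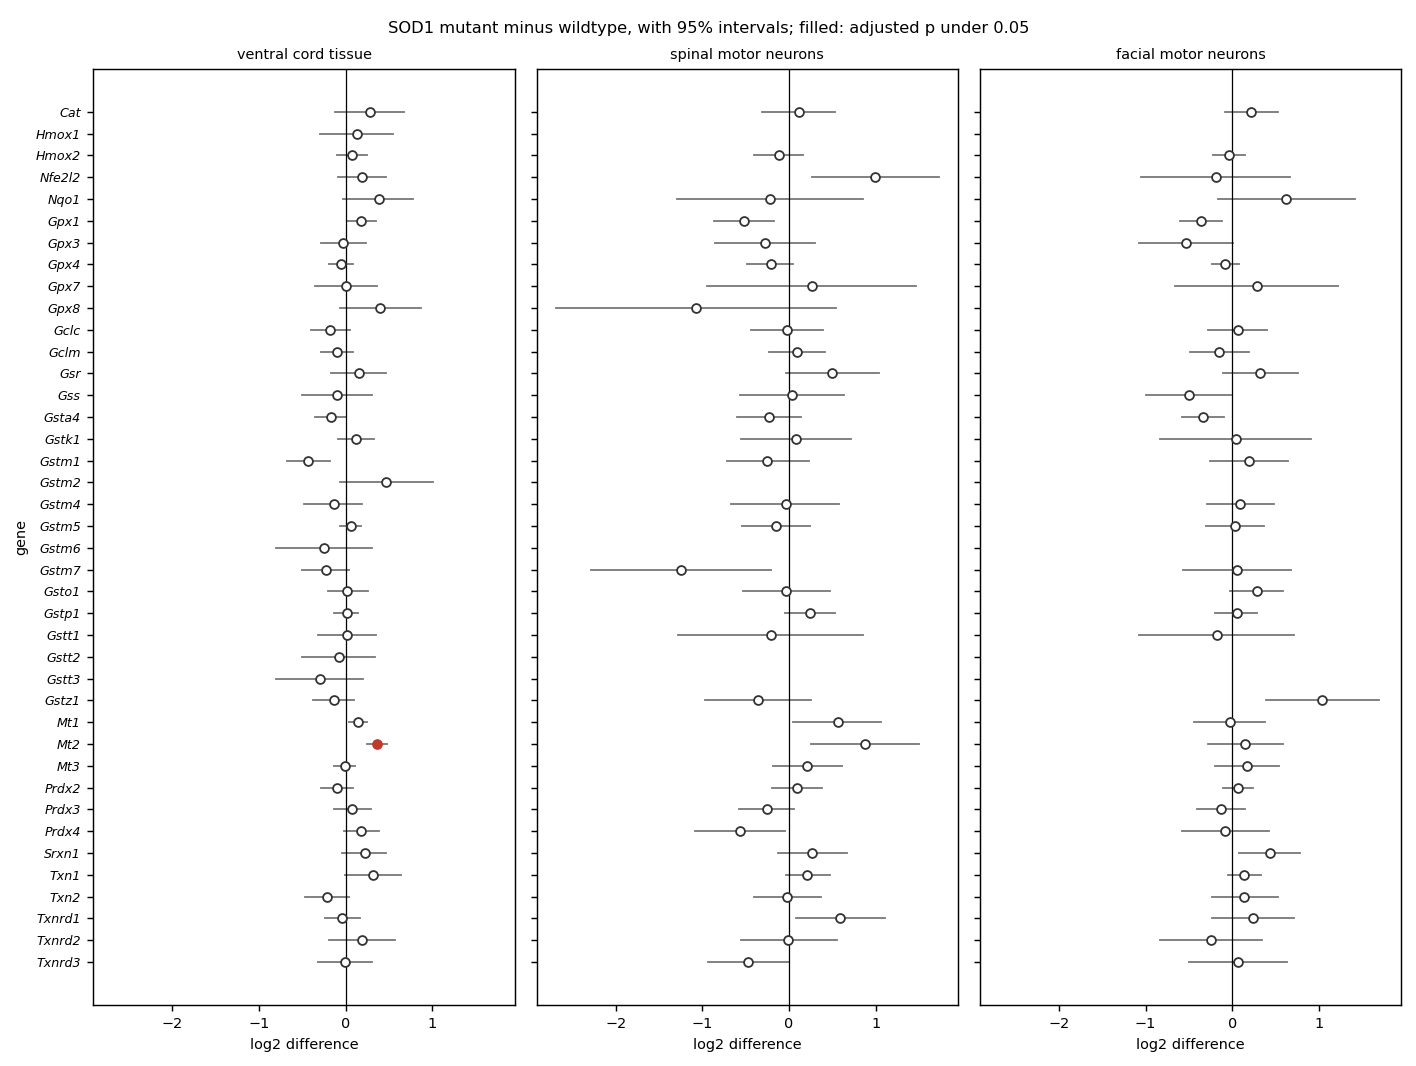
Difference of SOD1 mutant minus wildtype (x axis, log2 units, the same range in each panel) for each tested gene (y axis) in ventral cord tissue, spinal motor neurons and facial motor neurons, with 95% intervals as lines. Mt2 in tissue is the only filled point, meaning an adjusted p under 0.05, and intervals are wider in motor neurons than in tissue for most genes.

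The difference between genotype effects was tested directly. Of 38 genes none passed for spinal motor neurons against tissue, where 0.055% of all genes did, and 4 had an unadjusted p under 0.05 (10.5%, against 8.84% of all). Of 34 genes none passed for spinal against facial motor neurons, where 0% of all genes did, and 3 had an unadjusted p under 0.05 (8.82%, against 9.03% of all). Gpx1 had opposite signs in spinal motor neurons and tissue, and the difference between the effects was -0.70 (SE 0.18, adjusted p = 0.428). For Prdx4 it was -0.75 (adjusted p = 0.514), for Txnrd1 0.63 (adjusted p = 0.542) and for Nfe2l2 0.80 (adjusted p = 0.555). The dim genes Gstt3 and Gstm2 differed by 1.47 and -1.14 without passing. Without wildtype spinal replicate 2, 4 genes passed this contrast, Gpx1 (-0.75, adjusted p = 0.0243), Prdx4 (-0.99, adjusted p = 0.00491), Txnrd1 (0.89, adjusted p = 0.0146) and, named after its value was seen, Gstm5 (-0.42, adjusted p = 0.021). Over 23 alternatives their adjusted p-values reached 0.865 for Gpx1 and 0.996 for Prdx4 and Txnrd1. The share of all genes that passed without this array is not given here. Between spinal and facial motor neurons the effects on Gstz1 differed by -1.40 (adjusted p = 0.388), on Gstm7 by -1.30 (adjusted p = 0.525), on Nfe2l2 by 1.18 (adjusted p = 0.534) and on Mt2 by 0.72 (95% interval -0.11 to 1.56, adjusted p = 0.601).

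Gclm, the modifier subunit of glutamate-cysteine ligase and a standard Nrf2 target, differed little between genotypes. The differences were -0.10 in tissue (95% interval -0.28 to 0.08), 0.09 in spinal motor neurons (-0.23 to 0.41) and -0.15 in facial motor neurons (-0.49 to 0.19). Hmox1, the inducible heme oxygenase, was near background, with group means of 8 to 9.33, and was tested between genotypes in tissue alone (0.13, 95% interval -0.30 to 0.55). Related genes were followed through lists of glutathione handling, thioredoxin partners, NADPH supply, Nrf2 regulators and other targets, and zinc, copper and iron handling. None of their 99 or 100 tested genes passed between genotypes in any kind of sample in limma, while an unadjusted p under 0.05 was reached by 7 of 100 for tissue (9.91% of all genes), by 11 of 100 for spinal motor neurons (9.49% of all) and by 27 of 100 for facial ones (17.9% of all). Slc30a3, a vesicular zinc transporter, came nearest in tissue (-0.90, adjusted p = 0.0534).

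Whether the motor neurons of the cord and of the facial nucleus differ in these systems was asked within each genotype. In SOD1 mutants 5 of 34 genes were higher and 1 was lower in spinal than in facial motor neurons, which is 17.6% against 7.3% of all tested genes, and 9 had an unadjusted p under 0.05 (26.5%, against 22.9% of all). The higher ones were the metallothioneins Mt1, Mt2 and Mt3, glutathione reductase and thioredoxin reductase 1, and the lower one was Gstm5, a mu-class transferase. In wildtype samples none of 35 genes passed, against 3.97% of all genes, and 6 had an unadjusted p under 0.05 (17.1%, against 21.5% of all). The genotypes were not shown to differ here, since no interaction passed.

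Mt2 was 15.81, 15.87 and 15.84 in mutant spinal and 14.95, 14.68 and 14.08 in mutant facial motor neurons. All spinal arrays were higher, by 1.27 on average (SE 0.18, 2.41-fold, adjusted p = 0.00193). In wildtype samples, where Mt2 was 15.66, 14.18 and 15.05 in spinal and 14.40, 14.44 and 14.42 in facial motor neurons, the groups overlapped and the difference was 0.55 (adjusted p = 0.333). Mt1 was 16.39, 16.32 and 16.15 in mutant spinal and 15.69, 15.89 and 15.06 in mutant facial motor neurons (0.74, SE 0.17, adjusted p = 0.0244). In wildtype samples Mt1 overlapped between the sites (0.15, 95% interval -0.38 to 0.69). Mt3 was 14.78, 14.99 and 15.21 in mutant spinal and 14.46, 14.03 and 14.60 in mutant facial motor neurons (0.63, adjusted p = 0.0394). Unlike Mt1, Mt3 was also separated in wildtype samples, at 15.14, 14.59 and 14.63 in spinal and 14.39, 14.06 and 14.13 in facial motor neurons (0.59, adjusted p = 0.102). Of the metallothioneins, Mt2 kept its call in 16 of 17 alternatives, Mt1 in 13 and Mt3 in 7. Mt1 and Mt3 lost theirs with the arrays set to a common median.

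Gsr, which returns oxidized glutathione to its reduced form, was 12.70, 12.24 and 12.23 in mutant spinal and 11.37, 11.46 and 11.58 in mutant facial motor neurons (0.92, SE 0.21, 1.90-fold, adjusted p = 0.0212). The same direction was seen without overlap in wildtype samples (0.74, adjusted p = 0.117). Its second bright probe set differed by 0.41 in mutant and 0.33 in wildtype samples. Txnrd1 was 13.91, 14.04 and 13.81 in mutant spinal and 12.99, 12.73 and 13.54 in mutant facial motor neurons (0.83, adjusted p = 0.0288), with 2.40 from its second bright probe set. Gstm5 was 15.11, 15.12 and 15.18 in mutant spinal and 15.54, 15.93 and 15.49 in mutant facial motor neurons (-0.51, adjusted p = 0.0315). Gsr kept its call in 14 of 17 alternatives, Gstm5 in 11 and Txnrd1 in 10, and none of the 6 genes passed without the mean-variance trend. Leaving out mutant spinal replicate 1, 2 or 3 left 1, 2 or 3 of the 6 calls.

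Cells other than motor neurons also differed between these groups. Of 9 microglia markers 8 were higher in mutant spinal than in mutant facial motor neurons past the test, with a summed level of 68496 to 89362 in spinal and 21054 to 24779 in facial samples. In wildtype samples the levels overlapped, at 11534 to 31126 in spinal and 15159 to 30634 in facial samples, and none of 8 tested passed. Astrocyte markers summed to 120491 to 137188 in mutant spinal and 103630 to 121104 in mutant facial motor neurons, and 2 of 7 were higher, Gfap by 3.87 and Aqp4 by 1. In wildtype samples they summed to 97289 to 113817 in spinal and 101775 to 130669 in facial motor neurons, and the same markers were higher, Gfap by 3.91 (adjusted p = 0.0127) and Aqp4 by 1.42 (adjusted p = 0.0257). In mutants fibroblast and meningeal markers summed lower in spinal than in facial motor neurons, at 3031 to 7382 against 12877 to 31625. In wildtypes they summed to 2734 to 8178 in spinal and 11876 to 39695 in facial samples. Endothelial and mural markers summed to 4991 to 7104 in mutant spinal and 7444 to 13088 in mutant facial samples. Motor neuron markers summed to 102611 to 122340 in mutant spinal and 134241 to 161518 in mutant facial samples. Oligodendrocyte markers overlapped. The actin ratio was 25.3 to 39.1 in mutant spinal and 26.6 to 59.0 in mutant facial samples. The part of the other cells in the metallothionein, Gsr, Txnrd1 and Gstm5 differences was not tested. The actin ratio as a covariate was one of the alternatives counted above for these genes.

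**Figure D2:**
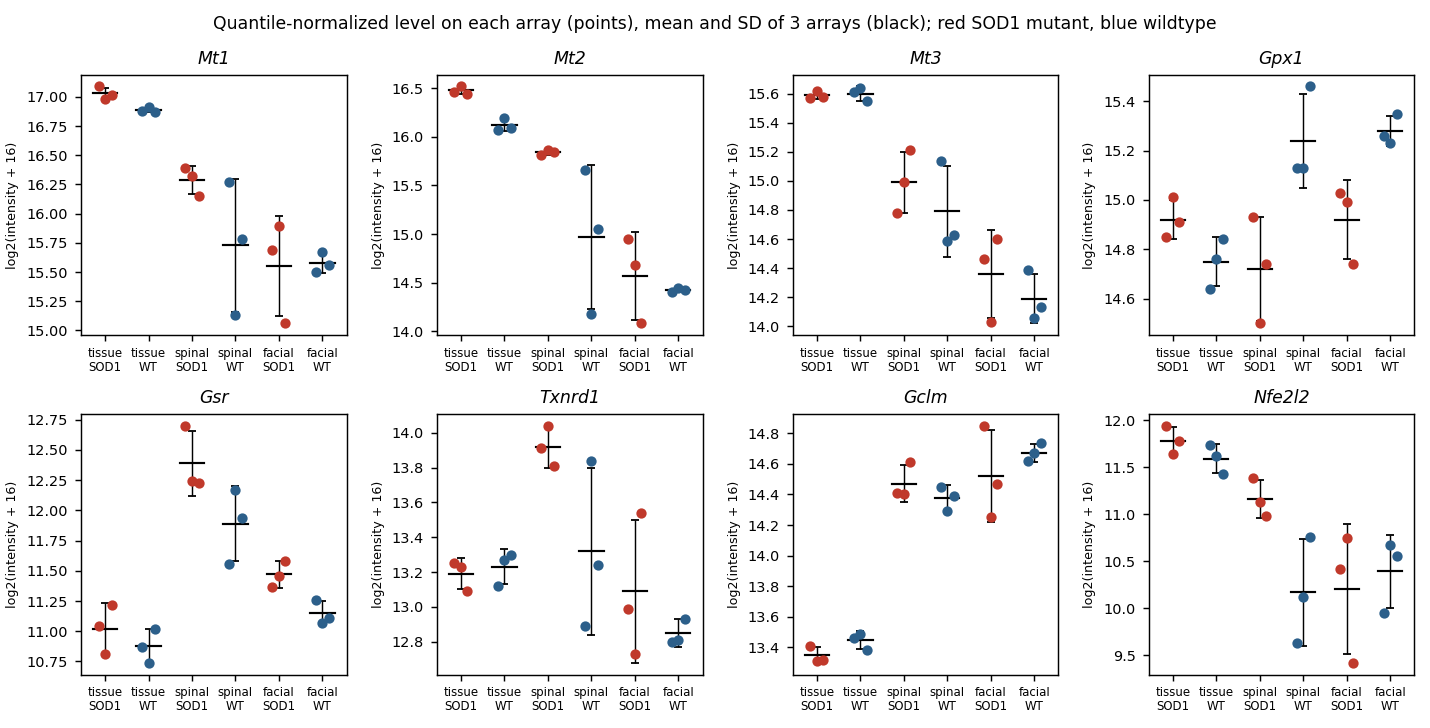
Log2(intensity + 16) on each array (points; red SOD1 mutant, blue wildtype) with the mean and SD of 3 arrays per group (black) for 8 genes; each panel has its own y range. Mutant spinal motor neurons lie above mutant facial motor neurons for Mt1, Mt2, Mt3, Gsr and Txnrd1, and Gpx1 is lower in mutant than in wildtype motor neurons of both sites.

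Among wildtype samples the smallest p-values between sites were those of Mt3, of Txnrd3 (13.20, 12.84 and 12.82 in spinal and 12.50, 11.51 and 12.17 in facial motor neurons, 0.89, adjusted p = 0.102) and of Gstz1 (0.97, adjusted p = 0.116). On the lower side were Gclm (-0.29, adjusted p = 0.211), Gstm5 (-0.34, adjusted p = 0.347) and Gclc, the catalytic subunit of glutamate-cysteine ligase (-0.28, adjusted p = 0.371). In mutants Nfe2l2 (0.96, adjusted p = 0.104) and Nqo1, a quinone reductase and Nrf2 target (-0.96, adjusted p = 0.13), had opposite signs, and Gclc was 0.36 lower (adjusted p = 0.229). In the related lists 4 of 99 genes were higher and 4 lower in mutant spinal motor neurons, which is 8.08% against 7.3% of all genes, and 4 of 100 were higher and 1 lower in wildtype ones (5% against 3.97%). Cbr3, a carbonyl reductase regulated by Nrf2, was higher in spinal samples of mutants (1.47, adjusted p = 0.0056) and of wildtypes (2.32, adjusted p = 0.00384). Tfrc, the transferrin receptor, was likewise higher in mutants (0.95, adjusted p = 0.00308) and in wildtypes (1.12, adjusted p = 0.00495).

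**Figure D3:**
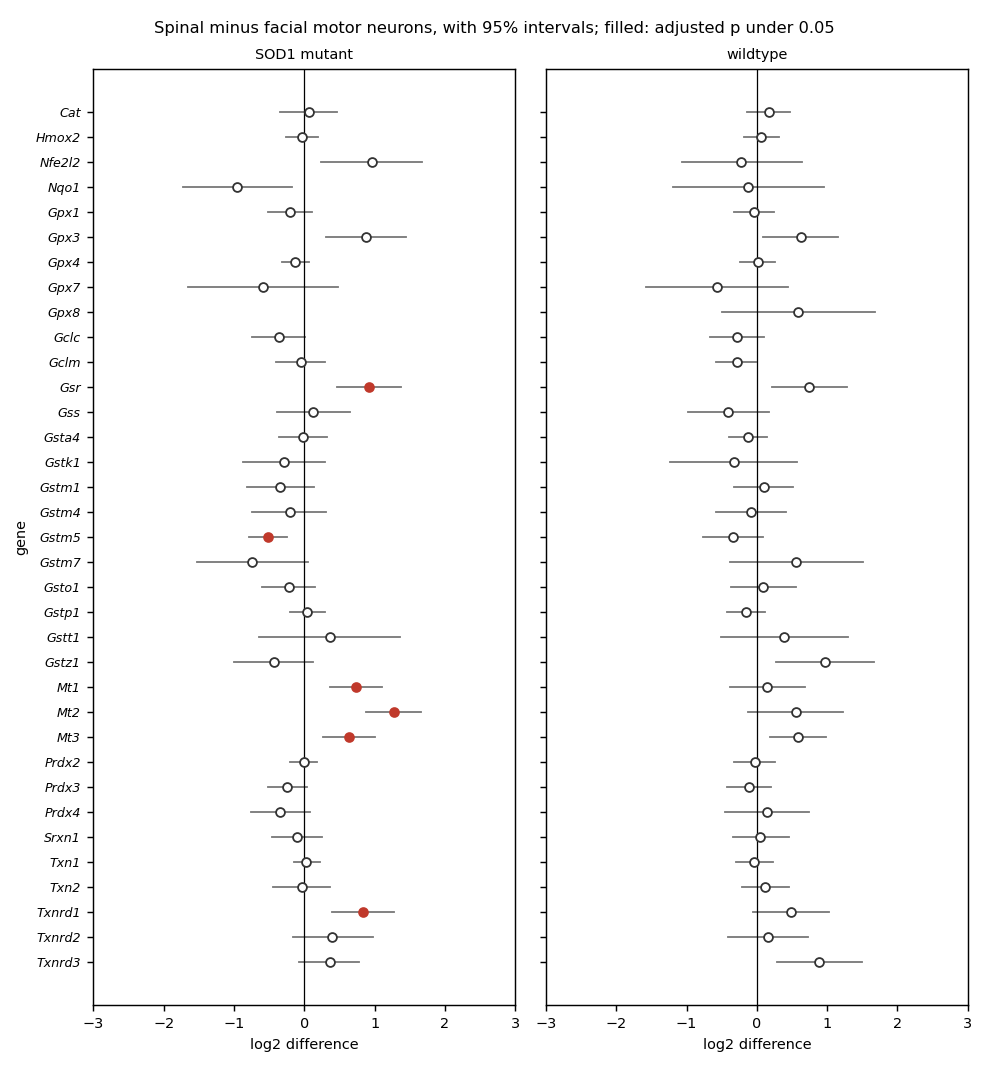
Difference of spinal minus facial motor neurons (x axis, log2 units) for each tested gene (y axis) in SOD1 mutant and wildtype samples, with 95% intervals as lines. Filled points have an adjusted p under 0.05: Mt1, Mt2, Mt3, Gsr and Txnrd1 to the right and Gstm5 to the left of 0 in mutants, and none in wildtype samples.

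The last comparison set motor neurons against ventral cord tissue of the same genotype. Thioredoxin 1, the peroxiredoxins 2 and 3, heme oxygenase 2 and the transferases Gstm4 and Gsto1 were higher in motor neurons. The peroxidase Gpx8 and the transferase Gstm7 were lower. They alone passed in all 4 comparisons under the 3 scalings given below with no bright probe set of opposite sign. The transferase Gstm1 was lower by the same rule, except that 1 other probe set had the opposite sign in 1 comparison. The share of all genes that meet this rule was not taken. Gpx8 had a mean above the background level in 4 of the 6 groups only, and its motor neuron arrays were partly at background. In spinal motor neurons 15 of 37 genes were higher and 11 lower in mutants, which is 70.3% against 68.8% of all tested genes. In wildtype spinal motor neurons 15 of 36 were higher and 10 lower (69.4% against 58.7%). In facial motor neurons 15 of 36 were higher and 11 lower in both mutants (72.2% against 65.3%) and wildtypes (72.2% against 68.2%). The shares lie near those of all genes in 3 of the 4 comparisons. In each of the 4, all 7 astrocyte and all 6 oligodendrocyte markers were lower in motor neurons, so that each difference is one between cell mixtures. The actin ratio was 25.3 to 74.4 on motor neuron arrays and 1.56 to 1.78 on tissue arrays, and facial motor neurons come from the brainstem. Sample kind, the reach of the amplified RNA and, for facial samples, the region cannot be told apart. Spinal and facial comparisons of a genotype share their tissue arrays, while mutant and wildtype comparisons share none. In spinal motor neurons 23 genes passed in the same direction in both genotypes, 88.5% of the mutant and 92% of the wildtype calls, against 75.4% and 88.4% over all tested genes. In facial motor neurons 22 did, 84.6% of the mutant and 84.6% of the wildtype calls, against 83.6% and 79.9% over all tested genes. None of the set passed in opposite directions at either site.

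The scale of this comparison rests on the normalization. In the deposited values the motor neuron arrays had medians of 286 to 341, and the tissue arrays of 533 to 583. The median difference of all tested genes was 0.22 to 0.25 after quantile normalization, 0.69 to 0.83 with the arrays set to a common median, and near 0 with the deposited scaling (-0.13 to -0.04). The share of all calls that were higher was 61% and 60.6% in mutant and wildtype spinal motor neurons after quantile normalization and 79.4% and 78.6% with a common median. In facial motor neurons it was 62.1% and 60.5%, against 81.4% and 78.5%. Under all 3 scalings, 13 genes of the set were higher and 3 lower in mutant spinal motor neurons, 12 higher and 5 lower in wildtype ones, 13 higher and 5 lower in mutant facial motor neurons and 14 higher and 7 lower in wildtype ones. The same count over all tested genes was not made. Most calls of all genes were higher too, so these counts show no trait of the set.

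**Figure D4:**
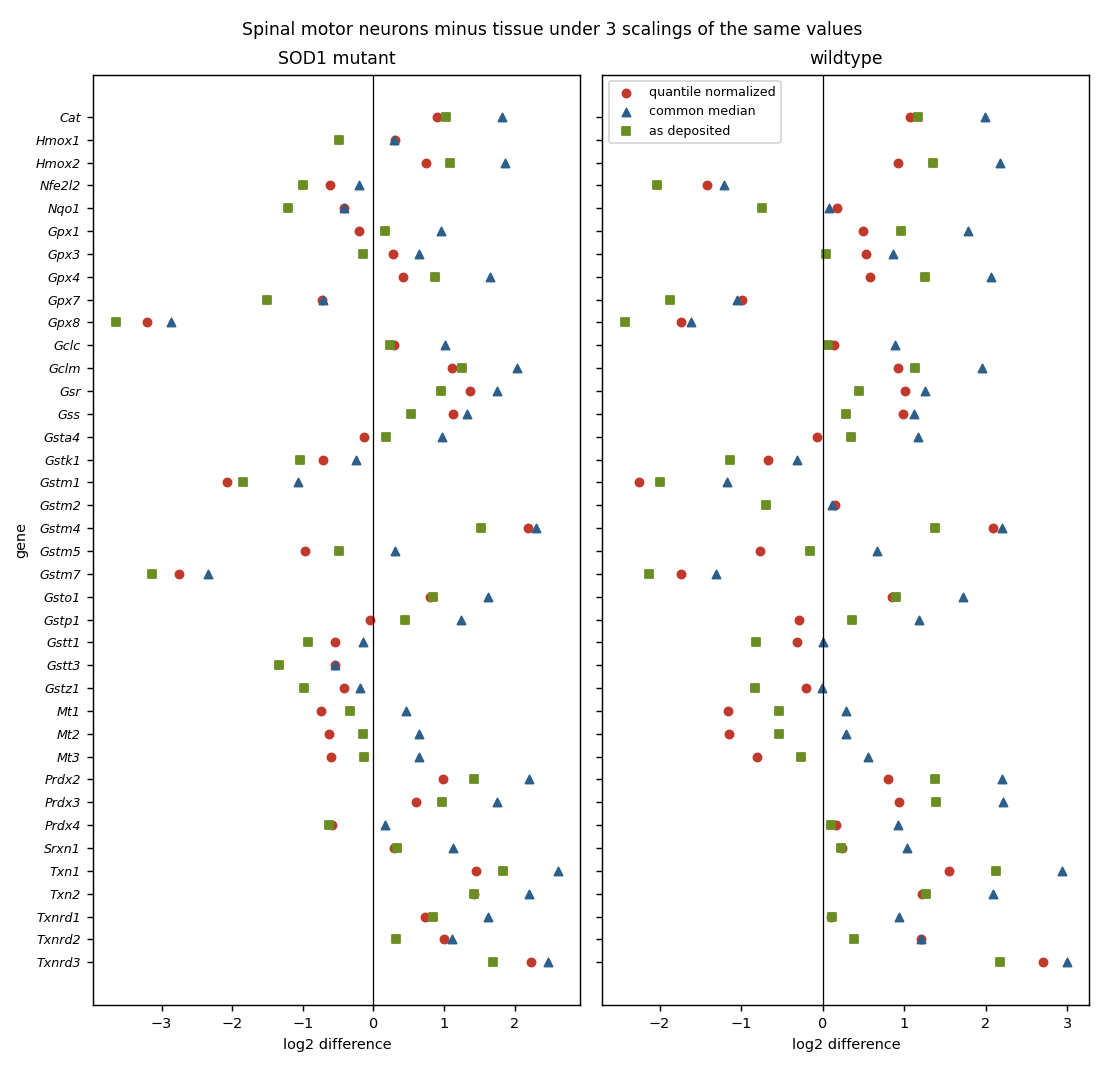
Difference of spinal motor neurons minus tissue (x axis, log2 units) for each tested gene (y axis) in SOD1 mutant and wildtype samples under 3 scalings of the same intensities. Txn1, Prdx2 and Gstm4 stay above 0 and Gstm1, Gstm7 and Gpx8 stay below 0 under each scaling, while Mt1, Mt2, Mt3 and Gstm5 change sign.

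The thioredoxins and their reductases had 5 of 5 tested genes higher in mutant spinal, 4 of 5 in wildtype spinal, 3 of 5 in mutant facial and 4 of 5 in wildtype facial motor neurons, where 1 was lower. Of all 10916 tested genes 4585, 3880, 4427 and 4510 were higher, in the same order. Txn1 was 16.72, 16.89 and 16.68 in mutant spinal motor neurons against 14.94, 15.62 and 15.38 in mutant tissue (1.45, SE 0.15, 2.74-fold, adjusted p = 1.17e-05). It was 16.74, 16.52 and 16.39 in wildtype spinal motor neurons against 14.88, 15.07 and 15.05 in wildtype tissue (1.55, adjusted p = 2.05e-05). In facial motor neurons the differences were 1.42 in mutants and 1.59 in wildtypes. No motor neuron array overlapped with tissue. Txnrd2, the mitochondrial thioredoxin reductase, was higher by 1 and 1.2 in mutant and wildtype spinal motor neurons and by 1.04 in wildtype facial ones, all past the test, and by 0.60 in mutant facial ones (adjusted p = 0.0509), with the same sign in both other bright probe sets. It did not keep its call under all scalings. Txn2 and Txnrd3 depended on the probe set. Txn2 was higher by 1.42 and 1.22 in mutant and wildtype spinal motor neurons in its main probe set, by 0.41 and 0.40 in another, and was -0.73 and -0.68 in another. Txnrd3 differed by 2.23 and 2.70 in its main probe set, by 0.95 and 0.80 in another, and by -0.06 and 0.02 in a further one. Txnrd1 was higher in mutant spinal motor neurons (0.73, adjusted p = 0.000199) and lower in wildtype facial ones (-0.38, adjusted p = 0.00981), where the common median turned its sign.

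Among the peroxiredoxins, Prdx2, the abundant cytosolic form, was 16.32, 16.41 and 16.37 in mutant spinal motor neurons against 15.29, 15.38 and 15.47 in mutant tissue (0.98, SE 0.07, adjusted p = 1.2e-06). It was higher by 0.80 in wildtype spinal, 0.99 in mutant facial and 0.83 in wildtype facial motor neurons, and its second probe set gave 1.37 to 2.64. Prdx3, the mitochondrial form, was 15.34, 15.08 and 15.39 in mutant spinal motor neurons against 14.56, 14.70 and 14.73 in mutant tissue (0.61, adjusted p = 0.000392). It was higher by 0.94 in wildtype spinal, 0.85 in mutant facial and 1.05 in wildtype facial motor neurons. Both genes were above tissue on every motor neuron array of either genotype. Prdx4 gave no single direction: its main probe set fell in mutant spinal motor neurons (-0.59, adjusted p = 0.00126, but 0.16 with a common median), and its other probe sets were 1.42 and 1.91 higher there. Srxn1 was higher past the test in mutant facial motor neurons alone (0.40, adjusted p = 0.033), and its other bright probe sets gave -0.41, -0.01 and 0.87.

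Of the enzymes that make glutathione, Gclm was 14.41, 14.40 and 14.61 in mutant spinal motor neurons against 13.41, 13.31 and 13.32 in mutant tissue (1.12, SE 0.10, 2.18-fold, adjusted p = 5.89e-06). It was 14.45, 14.29 and 14.39 in wildtype spinal motor neurons against 13.46, 13.49 and 13.38 in wildtype tissue (0.93, adjusted p = 0.000341), and higher by 1.18 in mutant and 1.23 in wildtype facial motor neurons. No array of the groups overlapped, but its second bright probe set gave -0.28, -0.12, -0.53 and -1.10 for the same 4 comparisons. Gss was higher by 1.13 and 0.99 in mutant and wildtype spinal and by 1 and 1.4 in mutant and wildtype facial motor neurons, with its second probe set at 2.13 to 2.75. Its call did not hold under every scaling in 3 of them. Gclc passed in facial motor neurons of mutants (0.65, adjusted p = 0.00243) and wildtypes (0.42, adjusted p = 0.0116). Gsr was 1.37 higher in mutant and 1.01 higher in wildtype spinal motor neurons in its main probe set and -2.35 and -3.68 in the second one. In mutant facial motor neurons Gsr was 0.45 higher (adjusted p = 0.0455), and -0.08 with the deposited scaling.

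Among the peroxidases, Gpx8, an enzyme of the endoplasmic reticulum, was 9.45, 6.67 and 9.28 in mutant spinal motor neurons against 11.41, 12.11 and 11.53 in mutant tissue. The motor neuron arrays were all lower and partly at background, with a difference of -3.21 (adjusted p = 0.00103) that is given without a fold. The difference was -1.74 in wildtype spinal (adjusted p = 0.00147), -3.81 in mutant facial (adjusted p = 4.07e-05) and -2.33 in wildtype facial motor neurons (adjusted p = 0.000259). Gpx4, which reduces phospholipid hydroperoxides, was higher by 0.42 and 0.58 in mutant and wildtype spinal and by 0.54 and 0.57 in mutant and wildtype facial motor neurons. Its second probe set was lower in the same comparisons, at -1.09, -0.74, -0.39 and -0.45. Gpx1 was higher in wildtype spinal (0.49, adjusted p = 0.0116) and wildtype facial motor neurons (0.53, adjusted p = 0.000334). In mutants Gpx1 differed by -0.20 in spinal motor neurons and did not pass at either site. Gpx7, of the endoplasmic reticulum too, was lower in wildtype spinal motor neurons (-0.99, adjusted p = 0.022) and Gpx3 in mutant facial ones (-0.61, adjusted p = 0.026).

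Of the 11 transferases tested, 2 were higher in each comparison, and 5 were lower in mutant spinal, 4 in wildtype spinal, 5 in mutant facial and 5 in wildtype facial motor neurons. Of all 10916 tested genes 4585, 3880, 4427 and 4510 were higher and 2929, 2524, 2698 and 2940 lower, in the same order. Members of the mu class lay on both sides. Gstm4 was 11.82, 11.32 and 12.28 in mutant spinal motor neurons against 9.56, 9.53 and 9.79 in mutant tissue (2.19, SE 0.24, 4.55-fold, adjusted p = 2.52e-05). It was higher by 2.09 in wildtype spinal, 2.40 in mutant facial and 2.17 in wildtype facial motor neurons. Gstm1 was 12.42, 12.25 and 12.69 in mutant spinal motor neurons against 14.75, 14.34 and 14.49 in mutant tissue (-2.07, SE 0.15, 4.20-fold, adjusted p = 1.16e-06). It was lower by 2.25 in wildtype spinal, 1.73 in mutant facial and 2.35 in wildtype facial motor neurons. A unique probe set of Gstm1 gave -2.14 to -2.69, and a cross-hybridizing one -0.74 to 0.35. Gstm7 was 9.25, 9.01 and 10.01 in mutant spinal motor neurons against 12.40, 11.97 and 12.16 in mutant tissue (-2.75, SE 0.26, 6.74-fold, adjusted p = 8.11e-06). It was lower by 1.74 in wildtype spinal, 2.01 in mutant facial and 2.30 in wildtype facial motor neurons. Gsto1 was higher in each, by 0.80 and 0.85 in mutant and wildtype spinal and 1.02 and 0.76 in mutant and wildtype facial motor neurons. Gstm5 was lower after quantile normalization (-0.97 and -0.77 in mutant and wildtype spinal, -0.46 and -0.43 in mutant and wildtype facial motor neurons) and 0.31, 0.67, 1.01 and 1.03 higher with a common median. Gstk1 was lower in spinal motor neurons of mutants (-0.72) and wildtypes (-0.67), Gstz1 in mutant spinal (-0.42) and wildtype facial ones (-1.16), and Gstt1 in mutant facial ones (-0.91). Gstt3 was lower in facial motor neurons of mutants (-0.90) and wildtypes (-1.78), but its mean was above the background level in 3 of the 6 groups only. Gstp1, the pi-class enzyme, passed in none of the 12 comparisons, with differences of -0.29 to 0.24.

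**Figure D5:**
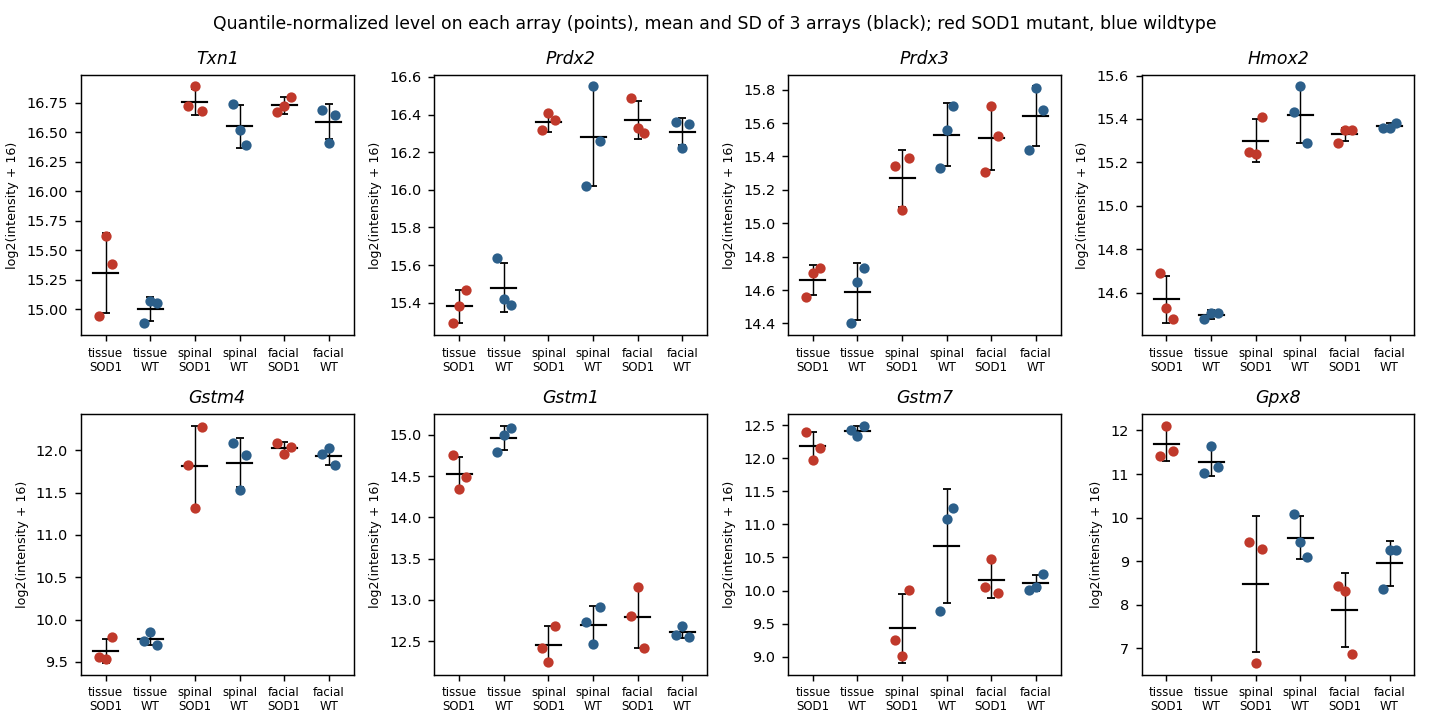
Log2(intensity + 16) on each array (points; red SOD1 mutant, blue wildtype) with the mean and SD of 3 arrays per group (black) for 8 genes; each panel has its own y range. Txn1, Prdx2, Prdx3, Hmox2 and Gstm4 are higher on every motor neuron array than on every tissue array, and Gstm1, Gstm7 and Gpx8 are lower on every one.

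Hmox2, the constitutive heme oxygenase, was 15.25, 15.24 and 15.41 in mutant spinal motor neurons against 14.69, 14.53 and 14.48 in mutant tissue (0.74, SE 0.09, 1.66-fold, adjusted p = 5.35e-05). It was higher by 0.92 in wildtype spinal, 0.76 in mutant facial and 0.87 in wildtype facial motor neurons. Cat, the catalase of peroxisomes, was higher by 0.90 and 1.07 in mutant and wildtype spinal motor neurons in its main probe set, but both differed by -0.39 in the second one. Nfe2l2 was lower by 0.62 and 1.42 in mutant and wildtype spinal and by 1.59 and 1.21 in mutant and wildtype facial motor neurons. The sign held under all 3 scalings, and in mutant spinal motor neurons the common median gave -0.20 (adjusted p = 0.33, from 0.000429 to 0.33 over 17 alternatives).

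The metallothioneins were lower in motor neurons after quantile normalization and changed sign or lost their call with a common median at each site, except Mt2 in wildtype facial motor neurons. Mt1 was -0.74 and -1.16 in mutant and wildtype spinal and -1.48 and -1.31 in mutant and wildtype facial motor neurons, and Mt2 was -0.63, -1.15, -1.91 and -1.70 in the same order. Mt3 was -0.60, -0.81, -1.23 and -1.41. With a common median Mt1 was 0.46, 0.29, -0.07 and 0.14, Mt2 was 0.64, 0.29, -0.48 and -0.35, and Mt3 was 0.65, 0.56, 0.13 and -0.09. Read against the median gene of each scaling, all of them were below it, but by amounts that still depended on the scaling. For Mt2 this relative difference was -0.88, -1.37, -2.16 and -1.92 after quantile normalization and -0.10, -0.40, -1.31 and -1.12 with a common median. Astrocytes, in which these genes are abundant, had all 7 markers lower in motor neurons, and the part of that in the metallothionein values was not tested.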

How the data were processed

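RNA of 18 mouse samples was measured on Affymetrix arrays after T7-based amplification, per the labels. The table the authors deposited holds 1 linear intensity per probe set and array, and its values have a trimmed mean of 2500 on every array; the processing of the images is not given in the sources used here. Here log2(intensity + 16) was taken, followed by quantile normalization of all 18 arrays together. Gene symbols came from GEO's annotation of the platform: 34958 probe sets had 1 symbol, 932 several and 9211 none. Only those with 1 symbol were used. Each gene took its probe set with the highest mean. In each fit, genes under the 40th percentile of gene means were left out, which left 10916. Each comparison was a linear model in limma 3.58.1 under R 4.3.3, with empirical Bayes variances that follow a mean-variance trend; p-values were adjusted by Benjamini-Hochberg over every gene tested, with a threshold of 0.05 and with 3 arrays per group, whose number limits the precision. SE is the standard error of the log2 difference. Fold changes are on the log2(intensity + 16) scale, which understates changes of dim genes. The fit was also tested on simulated data for 1 comparison, SOD1 mutant against wildtype spinal motor neurons.

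The genes, related lists and markers were chosen with earlier results of these data known. Named genes are Gclm, Nfe2l2 and Sod1, in each comparison the genes past the test (up to 12 per direction, filled to 3 by smallest p where fewer passed), the brightest and dimmest of each family, genes left out as dim, genes with a bright probe set of opposite sign, and the 2 genes with the smallest p of each related list, from which the text takes those it names. The values with the deposited scaling were added after seeing the data. Promoter windows come from RefSeq (GRCm38.p6), with 45 of 50 genes matched. Other alternatives were a common median, pseudocounts of 1 and 64, no filter or one at the 60th percentile, every probe set, the probe set by linear mean, no trend, all arrays in 1 fit, the replicate block, the actin ratio as a covariate and each array left out. The actin covariate was not used between motor neurons and tissue of a genotype.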

Additional observations from a re-analysis of the deposited data

How the results depend on the processing

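Main counts of genes past the test were 1 in tissue, 0 in spinal, 0 in facial and 1 over both motor neuron sites between genotypes, 0 for both contrasts of genotype effects, and 6 in mutants and 0 in wildtypes between sites. Between genotypes the tissue count was 0 with a common median, no filter, no trend or all 18 arrays in 1 fit, and 2 with the actin covariate. With all 18 arrays in 1 fit the count was 1 in spinal (Gpx1), 1 in facial (Gstz1) motor neurons, and 4 between sites in wildtypes. Over both sites it was 0 with a common median, no filter, every probe set, no trend, the replicate block or the actin covariate. Between sites in mutants it was 0 with no trend. With 1 array left out the counts ranged from 0 to 3 in tissue and in spinal motor neurons. They were 0 to 1 over both sites, and 0 to 4 for the genotype effect in spinal motor neurons against that in tissue. Between sites they ran from 0 to 1 in wildtypes and 1 to 6 in mutants. For facial motor neurons and for spinal against facial effects they were 0 throughout. The counts of all genes with 1 array left out are not given here. The motor neuron against tissue counts moved by less than 1.5 times, from 21 to 29. Signs turned in the motor neuron against tissue comparisons. With a common median these were, in spinal motor neurons, Gstm5 (0.31 in mutants, 0.67 in wildtypes), Mt1 (0.46, 0.29), Mt2 (0.64, 0.29), Mt3 (0.65, 0.56) and Prdx4 (0.16 in mutants). In facial motor neurons they were Gstm5 (1.01 in mutants, 1.03 in wildtypes), Mt3 (0.13 in mutants), Mt1 (0.14) and Txnrd1 (0.45 in wildtypes). With the deposited scaling they were Gstm5 (0.12 in mutant and 0.19 in wildtype facial motor neurons) and Gsr (-0.08 in mutant facial ones). The cause was not tested. A common median also moved the share of all calls that were higher between genotypes to 65.5% in tissue (79.4% after quantile normalization). It moved the share to 63.6% in spinal motor neurons (85.7%) and 23.2% over both sites (35.1%). For the genotype effect in spinal motor neurons against that in tissue the share moved to 100% of 4 calls (83.3% of 6). Between sites in mutants it moved to 40.1% (56%). Same-numbered arrays deviated together little (correlations of 0.30, 0.05 and 0.08 in tissue between genotypes, -0.07 to 0.14 elsewhere). With 3 arrays per group this cannot exclude a pairing, and the labels do not say what the numbers mark. The replicate block gave 24 to 27 genes for motor neurons against tissue, except 23 in mutant facial ones, and 6 between sites in mutants.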
